A study of Mus musculus with 4 samples.

Results

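The subunits described here are the 10 genes of the KMT2D complex: the methyltransferase *Kmt2d*, its paralog *Kmt2c*, the shared core *Wdr5*, *Rbbp5*, *Ash2l* and *Dpy30*, and the partners *Kdm6a*, *Ncoa6*, *Paxip1* and *Pagr1a*. They were chosen by gene symbol, and all 10 were found once each among the 32285 genes listed for every library. RNA was counted in single cells of the dissected pharyngeal region and heart, in 4 libraries made from mouse embryos of stage E9.5. The control group (cHet) was Tbx1Cre/+; Kmt2d F/+; GFP F/+, and the mutant group (cKO) was Tbx1Cre/+; Kmt2d F/F; GFP F/+, and the strain label of both was outbred SwissWebster. The study's methods describe its mice as kept on a mixed background of C57BL/6 and Swiss Webster. Cre is knocked into *Tbx1*, so both groups carried 1 working *Tbx1* allele, both had Cre only where *Tbx1* had been expressed, and only GFP-positive, DAPI-negative cells were sorted. Cells of cHet embryos could thus lose 1 *Kmt2d* allele and those of cKO embryos both. Each genotype had 2 libraries: Rep1 pooled 4 embryos per library (Next GEM kit v3.1) and Rep2 pooled 3 (GEM-X kit v4.1). Embryos of a pool cannot be told apart, so n = 2 libraries per genotype, and the replicate, the kit and the embryos changed together.

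KMT2D and KMT2C are the catalytic subunits of COMPASS-like complexes that place monomethylation on lysine 4 of histone H3, above all at enhancers. WDR5, RBBP5, ASH2L and DPY30 form a core that every KMT2 complex shares and that stimulates the methyltransferase. KDM6A (UTX, which removes methylation from lysine 27 of histone H3), NCOA6, PAXIP1 (PTIP) and PAGR1 (PA1) are found with KMT2C and KMT2D but not with the other KMT2 enzymes. Variants of *KMT2D* and *KDM6A* cause Kabuki syndrome, in which heart and craniofacial defects are common.

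Promoters are shown for the alternative catalytic subunits, *Kmt2d* and *Kmt2c*, and for *Kdm6a* and its Y-linked paralog *Uty*, which are compared below by the sex chromosomes of the cells. The windows come from RefSeq (GRCm38.p6, 250 bases before to 50 after a transcript start, 5′ to 3′), and capitals mark each CG dinucleotide, which reads the same on both strands.
Kmt2d, chr15:98871156-98871455, minus strand: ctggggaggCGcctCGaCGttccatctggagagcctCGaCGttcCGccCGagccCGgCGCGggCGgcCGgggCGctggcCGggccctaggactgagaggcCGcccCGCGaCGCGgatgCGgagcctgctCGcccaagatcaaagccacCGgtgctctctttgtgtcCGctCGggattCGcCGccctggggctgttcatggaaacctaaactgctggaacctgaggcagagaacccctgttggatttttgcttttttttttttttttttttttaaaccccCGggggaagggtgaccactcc
Kmt2c, chr5:25498734-25499033, minus strand: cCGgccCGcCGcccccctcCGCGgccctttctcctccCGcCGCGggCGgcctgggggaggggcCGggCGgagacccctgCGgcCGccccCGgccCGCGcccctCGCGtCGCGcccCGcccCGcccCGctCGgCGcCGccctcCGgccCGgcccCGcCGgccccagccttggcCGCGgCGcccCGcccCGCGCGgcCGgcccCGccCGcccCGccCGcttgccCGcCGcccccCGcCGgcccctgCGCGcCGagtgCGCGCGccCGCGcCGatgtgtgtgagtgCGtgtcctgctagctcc
Kdm6a, chrX:18162325-18162624, plus strand: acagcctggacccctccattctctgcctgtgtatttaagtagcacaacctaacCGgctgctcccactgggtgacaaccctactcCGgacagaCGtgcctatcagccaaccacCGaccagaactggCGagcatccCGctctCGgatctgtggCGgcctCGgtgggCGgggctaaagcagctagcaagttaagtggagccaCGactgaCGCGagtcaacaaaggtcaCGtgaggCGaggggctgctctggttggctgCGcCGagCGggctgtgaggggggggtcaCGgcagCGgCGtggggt
Uty, chrY:1245710-1246009, minus strand: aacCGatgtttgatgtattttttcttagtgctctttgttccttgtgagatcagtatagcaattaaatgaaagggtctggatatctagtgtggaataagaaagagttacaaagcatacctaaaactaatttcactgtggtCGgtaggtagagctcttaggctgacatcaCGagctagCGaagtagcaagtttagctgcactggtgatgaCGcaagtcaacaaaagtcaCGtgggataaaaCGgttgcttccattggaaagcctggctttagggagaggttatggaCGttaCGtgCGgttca
The *Kmt2c* window held 56 CG dinucleotides, a number that 0.195% of the 32851 windows of the same length reached. *Kmt2d* had 27 (reached by 15.5% of windows), *Kdm6a* 21 (24.8%) and *Uty* 10 (43.5%), against a median of 7. A window was matched for 9 of the 10 subunits, and that of *Dpy30* held 1 CG. The *Ncoa6* window, also with 1, lies at a transcript start inside the gene as GENCODE M21 draws it, not at its 5′ end. Those of the other matched subunits held from 15 to 56.

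The deposited files held 179454146 to 234726019 UMIs (unique molecular identifiers, each counting 1 captured transcript) per library. Of 37093 barcodes in cHet Rep1 and 9307 to 16775 in the others, 5869 to 11938 cells per library were kept (33448 in all, at least 3000 genes each), with medians of 17240.5 to 22972 UMIs. The barcodes of cHet Rep1 far outnumber the cells that the study lists for that library, while those of the others match its numbers, so results that use the shallow barcodes of cHet Rep1 may rest on barcodes the study did not count as cells. Libraries of the same replicate shared 12 (Rep1) and 41 (Rep2) cell barcodes and those of different replicates 0. The cells fell into 22 clusters, made without the subunits, and 12 cell types were named from markers, 14941 cells together, each name standing for cells that resemble that type (from 3 markers in cranial mesenchyme and paraxial mesoderm to 11 in endothelium and cardiac muscle). The remaining 8 clusters, 52.4 to 62.5% of the cells of a library, matched no list clearly and are left unnamed. The neural tube had only 22 and 30 cells in the Rep2 libraries, cardiac muscle had 38 in cKO Rep1, and contractile mesenchyme had 36 and 46 in cHet and cKO of Rep1. Levels are the UMIs of a gene in the summed cells, scaled to a fixed total (CPM, the usual scale of such sums). Since UMIs were read from the 3′ end and reads in introns may be included, the levels of different subunits are not ranked against each other.

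*Kmt2d* RNA was present in all 12 cell types, and its mean relative level was lowest in contractile mesenchyme, where few UMIs were counted in Rep1. *Kmt2d* (ENSMUSG00000048154) lies at chr15:98831669-98871204 on the minus strand of GRCm38 (GENCODE M21). Over all cells, *Kmt2d* was at 17.4 and 15.2 CPM in cHet and cKO of Rep1 and 23.9 and 21.0 CPM in cHet and cKO of Rep2. The libraries of Rep2 were higher than those of Rep1, and within each replicate cKO was below cHet. At least 1 *Kmt2d* UMI was found in 29.2 to 38.7% of the cells of a library, and in 7.65 to 10.9% after each cell was thinned to 5000 UMIs. Since no cell type is known to lack it, its level was also read in barcodes under 1000 UMIs, where it was at 27.1 and 23.9 CPM in cHet and cKO of Rep1 and 16.2 and 15.5 CPM in Rep2, and the part of free transcripts in the shares of cells was not tested. In posterior second heart field, the type with the highest mean level relative to its library, *Kmt2d* was at 19.1, 19.5, 24.4 and 26.9 CPM (cHet then cKO of Rep1, followed by cHet then cKO of Rep2, the order used below). In contractile mesenchyme it was at 8.98, 8.26, 20.03 and 16.5 CPM. The latter was below the former in every library, but its Rep1 sums held only 6 and 8 UMIs, and in Rep2 it was near endothelium in cHet (21.3 CPM) and cardiac muscle in cKO (16.6 CPM). Relative to the mean of the 12 types in the same library, *Kmt2d* was at 1.16 ± 0.103 in posterior second heart field (mean ± SD, n = 4 libraries), 1.13 ± 0.169 in paraxial mesoderm, 1.12 ± 0.102 in neural tube, 1.10 ± 0.176 in ectoderm and 1.08 ± 0.112 in sensory neurons. Next came endothelium at 1.00 ± 0.0864, otic vesicle at 0.997 ± 0.0422 and endoderm at 0.991 ± 0.0640, and then cranial mesenchyme at 0.929 ± 0.116, branchiomeric muscle at 0.913 ± 0.0921, cardiac muscle at 0.908 ± 0.115 and contractile mesenchyme at 0.670 ± 0.176. The ranges over libraries overlapped for all 11 pairs of neighbors in this order. A *Kmt2d* UMI was found in 15.2 to 37.6% of contractile mesenchyme cells of a library and in 34.4 to 40.1% of posterior second heart field cells. After thinning these shares were 5.56 to 10.9% and 7.69 to 10.8%, and they overlapped.

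*Kmt2c*, the other catalytic subunit of these complexes, also varied little and had its highest mean relative level in sensory neurons. *Kmt2c* (ENSMUSG00000038056) lies at chr5:25271798-25498783 on the minus strand. Over all cells it was at 93.5 and 92.8 CPM in cHet and cKO of Rep1 and 137 and 135 CPM in cHet and cKO of Rep2. It was found in 76.0 to 89.5% of the cells of a library, or 35.3 to 48.3% after thinning, and was at 64.6, 38.3, 44.2 and 59.2 CPM in barcodes under 1000 UMIs. Sensory neurons had 119, 97.8, 150.2 and 155 CPM, and endothelium, the lowest type on average, had 73.1, 78.3, 118 and 116 CPM. In single libraries other types were at either end, such as endoderm at the top in cKO Rep1 and otic vesicle at the bottom. Relative levels ran from 1.21 ± 0.0913 in sensory neurons and 1.15 ± 0.0348 in posterior second heart field down to 0.923 ± 0.0596 in cardiac muscle and 0.891 ± 0.0437 in endothelium (mean ± SD, n = 4 libraries). The highest and the lowest type did not overlap in relative level, but no neighbors in the order were apart.

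**Figure D1:**
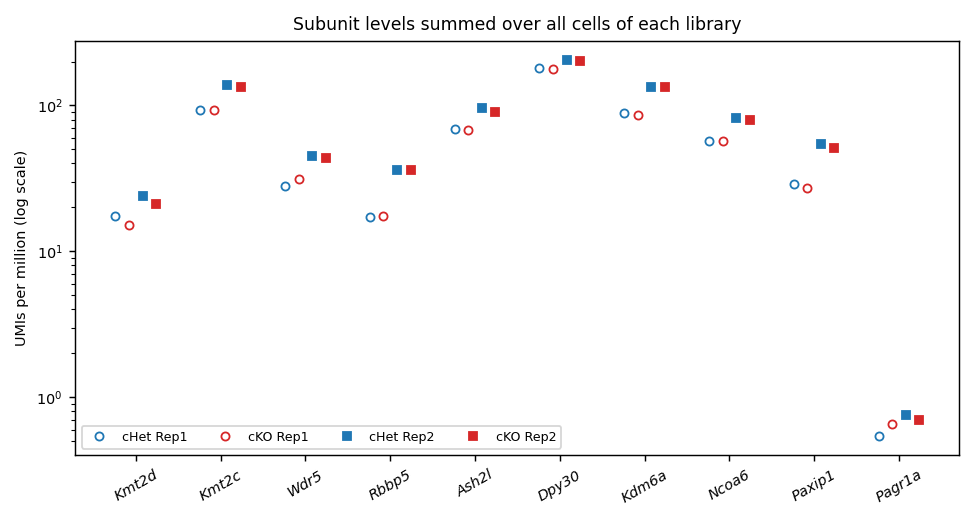
Level of each subunit (CPM, log scale) in the summed cells of each library. Points are libraries (blue cHet, red cKO, open circles Rep1, filled squares Rep2), and for all 10 subunits both Rep2 libraries lay above both Rep1 libraries, with *Pagr1a* under 1 CPM throughout.

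All 10 subunits were higher in Rep2 than in Rep1, in both genotypes. *Kmt2d* was 1.37-fold higher in Rep2 in cHet and 1.38-fold in cKO, near the median of all 8894 genes above 10 CPM (1.34 and 1.33). *Rbbp5* was raised most (2.10-fold and 2.09-fold), followed by *Paxip1* (1.90-fold and 1.86-fold), and *Dpy30* least in cHet (1.14-fold). The kit and the embryos cannot be told apart here, so levels were compared within a replicate or with the replicate or library as a block. The exceptions are the alternatives fitted without a block.

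Among the shared core subunits, the type with the lowest mean relative level was cardiac muscle for *Wdr5* and *Rbbp5* and endothelium for *Ash2l* and *Dpy30*. *Wdr5* (ENSMUSG00000026917) lies at chr2:27515157-27536535 on the plus strand, *Rbbp5* (ENSMUSG00000026439) lies at chr1:132477365-132505659 on the plus strand, *Ash2l* (ENSMUSG00000031575) lies at chr8:25815996-25847694 on the minus strand and *Dpy30* (ENSMUSG00000024067) lies at chr17:74299474-74323944 on the minus strand. *Wdr5*, which binds histone H3 and holds the core together, was at 28.2 and 31.5 CPM in cHet and cKO of Rep1 and 44.9 and 43.7 CPM in cHet and cKO of Rep2 over all cells. In cardiac muscle it was at 19.3, 24.96, 23.2 and 28.4 CPM, below every other type in relative level on average (0.658 ± 0.125, mean ± SD, n = 4 libraries). The neural tube, at the other end (1.26 ± 0.342), had 30.7, 31.3, 81.0 and 52.6 CPM, and its high value came from cHet Rep2, where 22 cells were summed. *Rbbp5*, which contacts the methyltransferase together with ASH2L, was at 17.3 and 17.4 CPM in cHet and cKO of Rep1 and 36.3 and 36.2 CPM in cHet and cKO of Rep2 over all cells. Cardiac muscle had 11.4, 10.6, 20.7 and 25.4 CPM of *Rbbp5*, and its relative level (0.659 ± 0.0357) did not overlap that of the next type, endothelium (0.885 ± 0.103). Cardiac muscle also had the highest mitochondrial share of the 12 types in each library (2.95, 2.79, 1.41 and 1.64%, against 2.15, 2.01, 1.27 and 1.38% over all cells), and *Malat1* was at 5908, 4794, 4468 and 5002 CPM there against 4189, 4143, 2869 and 3309.6 CPM. Their part in the low levels of this type was not tested.

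*Ash2l* was at 68.8 and 67.8 CPM in cHet and cKO of Rep1 and 96.4 and 90.8 CPM in cHet and cKO of Rep2 over all cells. It was lowest in endothelium, at 55.4, 46.8, 71.6 and 63.3 CPM, and high in otic vesicle, at 71.3, 74.3, 123 and 110.3 CPM. Otic vesicle was above endothelium in each library. *Dpy30*, the smallest core subunit, was found in most cells (93.4 to 95.8%, or 57.6 to 62.3% after thinning) and was at 181 and 178 CPM in cHet and cKO of Rep1 and 206 and 202 CPM in cHet and cKO of Rep2. In barcodes under 1000 UMIs it was at 218, 229.7, 128 and 161 CPM. Its order matched that of *Ash2l* at both ends, with 218, 253, 272 and 248 CPM in otic vesicle and 154, 152, 177 and 176 CPM in endothelium. Across the 48 sums of type and library, after the mean of each library was subtracted, *Ash2l* and *Dpy30* had the highest correlation of any 2 subunits (r = 0.61), and *Wdr5* and *Rbbp5* the next (r = 0.50). *Kmt2c* and *Wdr5* had the lowest (r = -0.39). These values are descriptions, since sums of 1 library share its depth and cells, and *Pagr1a* was too low to be included.

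Among the partners of KMT2C and KMT2D, cardiac muscle had the lowest mean relative level of *Kdm6a* and *Paxip1*, and otic vesicle that of *Ncoa6*. *Kdm6a* (ENSMUSG00000037369) lies at chrX:18162575-18279936 on the plus strand, *Ncoa6* (ENSMUSG00000038369) lies at chr2:155390656-155473894 on the minus strand, *Paxip1* (ENSMUSG00000002221) lies at chr5:27740080-27791691 on the minus strand and *Pagr1a* (ENSMUSG00000030680) lies at chr7:127015033-127017352 on the minus strand. *Kdm6a* was at 88.6 and 86.5 CPM in cHet and cKO of Rep1 and 133 and 133 CPM in cHet and cKO of Rep2 over all cells and was found in 74.7 to 89.1% of the cells of a library (33.7 to 47.4% after thinning). In barcodes under 1000 UMIs it was at 65.0, 33.5, 61.4 and 54.8 CPM. In cardiac muscle it was at 67.4, 54.7, 103 and 90.4 CPM, and in sensory neurons, the highest type on average, at 88.2, 96.1, 151 and 139.6 CPM. Cardiac muscle was below the next type, posterior second heart field, without overlap in relative level (0.748 ± 0.0747 against 0.889 ± 0.0386). This order pools the *Xist* and Y classes of cells defined below. In the *Xist* class cardiac muscle was the lower of these types in each library. In the Y class it was the higher in cHet (57.6 against 40.2 CPM in Rep1, 91.2 against 58.2 in Rep2). It was the lower there in cKO (50.4 against 56.3 CPM in Rep1, 72.9 against 81.8 in Rep2). *Ncoa6*, a coactivator of nuclear receptors, was at 57.0 and 57.4 CPM in cHet and cKO of Rep1 and 81.7 and 79.7 CPM in cHet and cKO of Rep2. Its lowest type on average was otic vesicle, at 40.3, 41.6, 69.3 and 55.9 CPM, and its highest, paraxial mesoderm, was at 64.6, 57.6, 75.4 and 74.8 CPM. *Paxip1*, a protein with BRCT domains that also acts in the DNA damage response, was at 28.7 and 27.3 CPM in cHet and cKO of Rep1 and 54.6 and 50.8 CPM in cHet and cKO of Rep2. It was at 19.3, 26.9, 34.6 and 21.2 CPM in cardiac muscle and 33.5, 32.2, 59.7 and 58.4 CPM in neural tube, and in cKO Rep1 the cardiac value lay within the range of the other types.

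*Pagr1a* was close to the limit of detection in every library. Its row held from 67 UMIs in cHet Rep1 to 155 in cHet Rep2. Its level was 0.539 and 0.654 CPM in cHet and cKO of Rep1 and 0.761 and 0.697 CPM in cHet and cKO of Rep2. By GENCODE M21, 98.7% of its exon bases are also exon bases of *Gm42742* on the same strand, a gene with 9 to 16 UMIs per library. Another 24.3%, which may overlap these, are exon bases of *Pagr1b*, whose identifier is not among the genes listed for the libraries. How reads shared by these genes were counted is not given in the sources used here, so the level of *Pagr1a* is uncertain. Its order over types, from 1.61 down to 0.406 in relative level, rests on few UMIs.

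**Figure D2:**
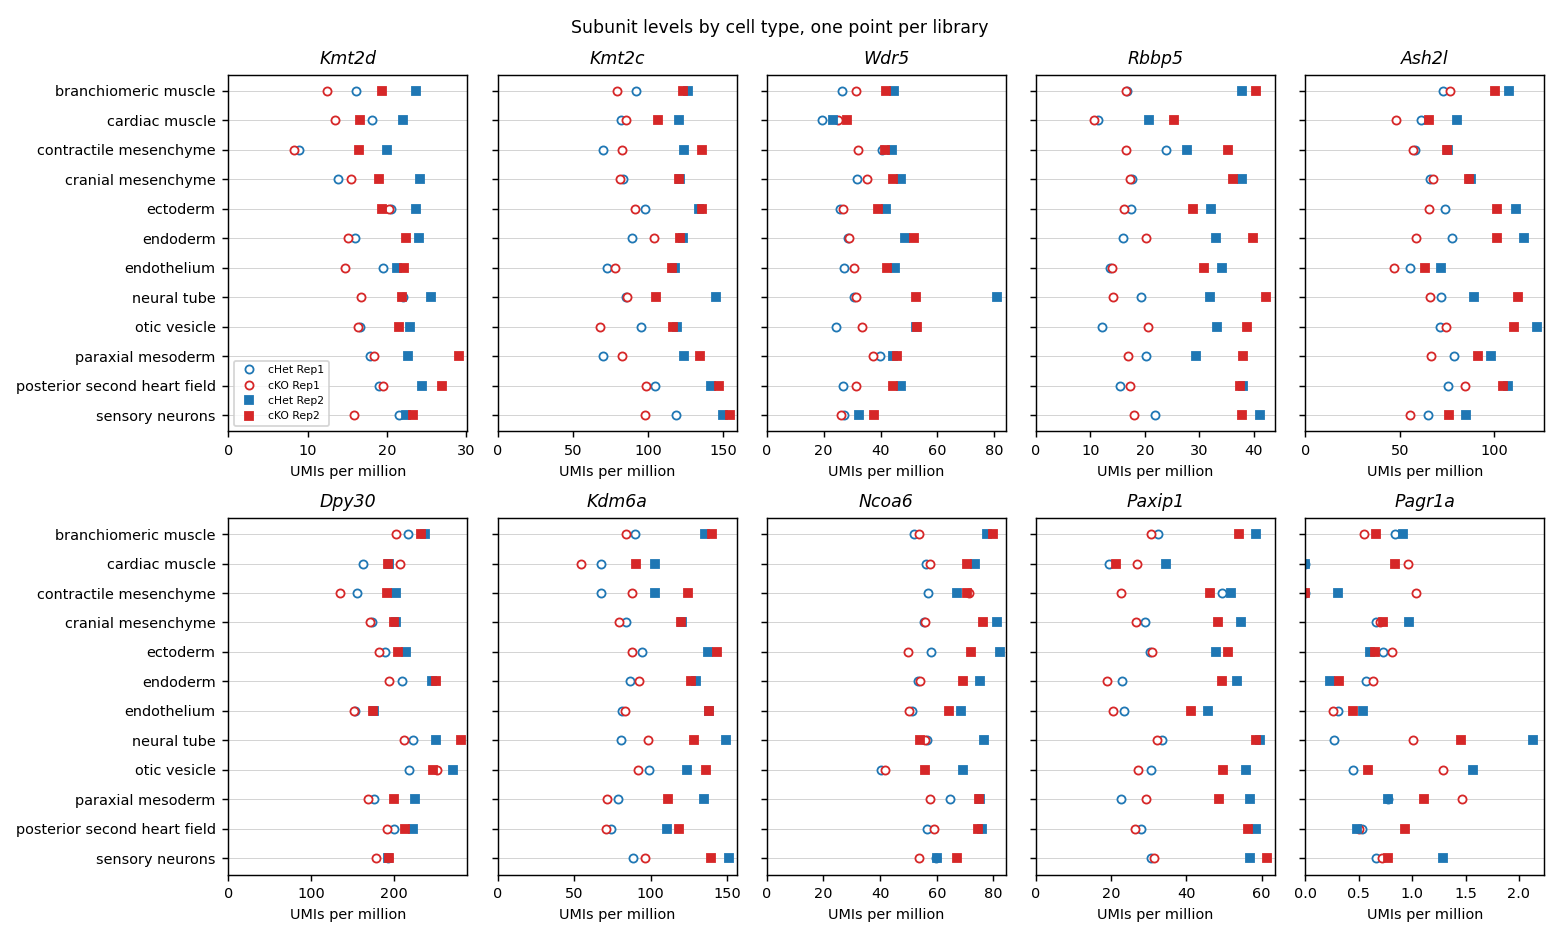
Level of each subunit (CPM) in the 12 cell types, with 1 point per library (blue cHet, red cKO, open circles Rep1, filled squares Rep2). Within a subunit the points of a library spread over the types, such as *Wdr5* in cHet Rep2 from 23.2 CPM in cardiac muscle to 81.0 CPM in neural tube. For *Wdr5* and *Rbbp5* the point of cardiac muscle is the lowest of its library in each of the 4 libraries.

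The subunits differed among the 12 types, but by less than most genes tested, some of which had been used to form the clusters. All 9 subunits that passed the filter on low counts (*Pagr1a* did not) were called in the F test over types, edgeR's quasi-likelihood test with the library as a block, beside 94.4% of all 14440 genes tested, so the calls do not set the subunits apart. The adjusted p was largest for *Kmt2d* (0.0161) and smallest for *Ash2l* (5.79e-09). The fitted distance from the lowest to the highest type was 0.61 (log2) for *Kmt2d*, 0.40 for *Kmt2c* and 0.43 for *Kdm6a*. It was largest for *Paxip1* (0.83) and *Wdr5* (0.72). The median over the 9 was 0.53, against 1.32 over all genes, and the 9 lay at percentiles 5.14 to 30.3 of the genes tested. The subunits and the gene lists below were left out of the clustering, and other genes tested were used in it. Nor were those genes matched to the subunits in level. The share called and the distances over all genes are thus descriptions. The call of *Kmt2d* was lost in 7 of the 10 alternatives, among them the cHet libraries alone, where 5 of 9 were called, and cells thinned to 5000 UMIs, where 6 were. The calls over all genes also fell, from 13632 to 11494 and 9749.

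The next comparison asked whether the transcripts of the complex changed with the second *Kmt2d* allele, cKO against cHet. *Kmt2d* itself, the targeted gene, was lower in cKO in both replicates, by a small amount that did not pass the test, and no other subunit passed it either. The sources used here do not say which exons are flanked by loxP sites, and a count over the whole gene does not separate deleted from intact transcripts, so the *Kmt2d* row is no check of the genotype labels. The log2 ratio of cKO to cHet was -0.19 in Rep1 and -0.18 in Rep2 for *Kmt2d*. The edgeR estimate with the replicate as a block and TMM scaling was -0.16 ± 0.0748 (SE), adjusted p = 0.956 (unadjusted p = 0.076). It was -0.35 (adjusted p = 0.63) when the minimum was lowered to 1000 genes and the other filters on barcodes were kept. Before those other filters, that setting raised the barcodes of cHet Rep1 from 6242 to 22331 but those of cKO Rep1 only from 6668 to 7842. The genotypes of Rep1 thus differ in what it adds. Fitted without the block so that 1 library could be left out, the *Kmt2d* estimate was -0.25 without cKO Rep2 and -0.24 without cHet Rep1. It was -0.11 without cHet Rep2 and -0.090 without cKO Rep1. Such fits set both replicates of a genotype against a single one of the other. The step between replicates thus enters these estimates, as it does those by type below with a library left out.

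Of the 10 subunits, 0 passed the adjusted p of 0.05 over all cells, beside 0% of 20126 genes, of which 1139 had an unadjusted p under 0.05 (0 of the subunits). DESeq2 called 65 genes, again with 0 subunits. *Kmt2c*, the paralog, was within a few percent of cHet in both replicates (log2 ratios of -0.011 and -0.027), with an estimate of 0.011 ± 0.0512 (SE), adjusted p = 0.999. The *Kdm6a* ratios were -0.036 and -0.00067, with an estimate of 0.012 ± 0.0506 (SE), adjusted p = 0.999. *Wdr5* was higher in cKO in Rep1 (0.16) and slightly lower in Rep2 (-0.039). *Paxip1* was lower in both (-0.076 and -0.11), with an estimate of -0.061 ± 0.0638 (SE), adjusted p = 0.999. The estimates of the 9 subunits other than *Kmt2d* ran from -0.061 to 0.089, beside a median of 0.016 over all genes.

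By cell type, the *Kmt2d* estimate was below 0 in 10 of 12 types and above 0 in paraxial mesoderm and posterior second heart field, and it passed the test in none. The number below 0 was 7 without cHet Rep2 and 9 or 10 with another library left out. Both replicates were lower in cKO in 7 types, both higher in 2 and they went opposite ways in 3. In branchiomeric muscle, *Kmt2d* was at 16.1, 12.5, 23.7 and 19.4 CPM, lower in cKO in both replicates, with an edgeR estimate of -0.29 ± 0.113 (SE), adjusted p = 0.574 (unadjusted p = 0.0314). It was -0.16 without cKO Rep1 and -0.46 without cKO Rep2. Cardiac muscle had 18.2, 13.4, 22.1 and 16.6 CPM and the lowest estimate, -0.37 ± 0.273 (SE), from 38 to 242 cells per library. With cells thinned to 5000 UMIs the estimate was -0.59 in cardiac muscle and lower still in neural tube, at -0.75 against -0.31 before thinning. Paraxial mesoderm had 17.9, 18.4, 22.7 and 29.1 CPM and the highest, 0.26 ± 0.208, which fell below 0 under thinning. At the finer clustering the estimate under this name was also below 0. There the name took in another, larger cluster (markers *Tcf15*, *Foxc2* and *Tbx18*), so that estimate rests mostly on other cells. Cranial mesenchyme, with 13.8, 15.4, 24.2 and 19.0 CPM, was higher in cKO in Rep1 and lower in Rep2. The remaining estimates were -0.26 ± 0.331 in contractile mesenchyme, -0.17 ± 0.171 in ectoderm, -0.084 ± 0.231 in endoderm, -0.14 ± 0.144 in endothelium and -0.31 ± 0.322 in neural tube. In otic vesicle, posterior second heart field and sensory neurons they were -0.074 ± 0.241, 0.085 ± 0.142 and -0.17 ± 0.197.

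Across all subunits and types, 0 of 110 edgeR tests passed and 3 had an unadjusted p under 0.05: *Kmt2d* in branchiomeric muscle, *Ash2l* in endothelium (-0.20 ± 0.0788 (SE), adjusted p = 1) and *Kdm6a* in contractile mesenchyme (0.30 ± 0.149 (SE), adjusted p = 1). Of all genes in the same edgeR tests, 1062 of 14450 in branchiomeric muscle, 531 of 13076 in endothelium and 461 of 9952 in contractile mesenchyme had an unadjusted p under 0.05. The 3 subunit values are thus not set apart from other genes. DESeq2 called 0 of the subunits in the 12 types as well. The share of all genes called was 1.34% in otic vesicle, 0.626% in cranial mesenchyme, 0.435% in posterior second heart field, 0.337% in cardiac muscle, 0.183% in endoderm, 0.151% in contractile mesenchyme, 0.138% in branchiomeric muscle and 0.0246% in sensory neurons. It was 0% in ectoderm, endothelium, neural tube and paraxial mesoderm. *Ash2l* was at 55.4, 46.8, 71.6 and 63.3 CPM in endothelium, lower in cKO in both replicates. *Kdm6a* was at 67.3, 87.8, 103 and 124 CPM in contractile mesenchyme, higher in cKO in both. There the Y class, defined below by Y-linked transcripts, held 23.3, 9.52, 30.6 and 31.6% of the classed cells. The part of this mix in the difference was not tested. *Paxip1* estimates were below 0 in 10 of 12 types, *Ash2l*, *Dpy30*, *Kmt2c* and *Ncoa6* in 8 each, *Rbbp5* in 5, and *Wdr5* and *Kdm6a* in 4 each, none with a call. A test of the difference itself, type by genotype, called 0 of 9 subunits (*Kmt2d* unadjusted p = 0.494, *Kdm6a* 0.213), beside 0.117% of 15337 genes. The SE of the *Kmt2d* estimate ran from 0.113 in branchiomeric muscle to 0.331 in contractile mesenchyme.

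**Figure D3:**
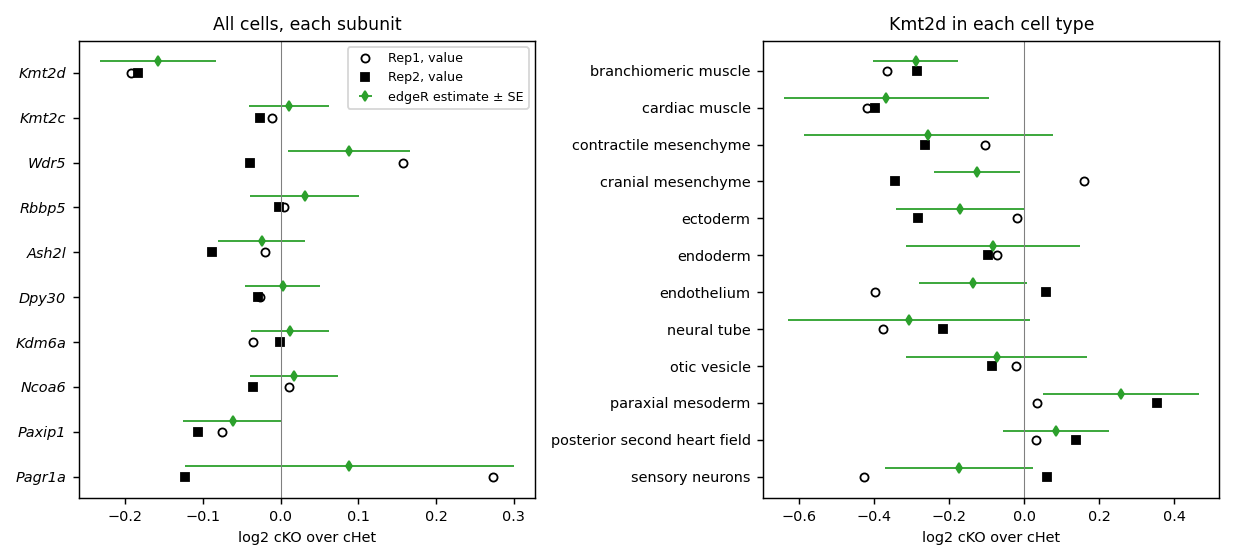
Log2 ratio of cKO to cHet for each subunit over all cells (left) and for *Kmt2d* in each type (right). Open circles are Rep1 and filled squares Rep2, from CPM with a prior count of 2, and green diamonds are edgeR estimates ± SE, which use TMM scaling. The SE is the size of the estimate divided by the square root of its F statistic. *Kmt2d* lies at -0.19 and -0.18 in the left panel, and the right panel has 7 types with both replicates below 0.

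*Kdm6a* is X-linked and known to escape X inactivation, and *Uty* is its Y-linked paralog, so cells were also compared by the sex chromosomes they expressed. *Kdm6a* was higher in cells with *Xist* (the RNA of the inactive X) than in cells with Y-linked transcripts, by a similar amount in all 4 libraries, while the other 9 subunits were not called. The *Xist* class held cells with at least 2 *Xist* UMIs and none of *Ddx3y*, *Eif2s3y* or *Kdm5d*, and the Y class those with at least 2 UMIs of the latter and no *Xist*. There were 3808, 3928, 5812 and 6782 cells in the *Xist* class and 863, 1386, 2117 and 3278 in the Y class. Cells with fewer UMIs of these genes, or with both kinds, were in neither class, so the numbers are not the share of embryos of each sex. Of the classed cells, the Y class held 18.5 and 26.1% in cHet and cKO of Rep1 and 26.7 and 32.6% in Rep2. *Kdm6a* values of cKO against cHet that pool the classes thus mix genotype and class, and those within each class are given below. Cells of the classes come from different embryos of the same few in a pool.

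In the *Xist* class, *Kdm6a* was at 99.1, 98.4, 153 and 159 CPM, and in the Y class at 63.4, 64.2, 95.3 and 98.0 CPM. The ratio was 1.56, 1.53, 1.60 and 1.62, with the *Xist* class above the Y class in each library. The edgeR estimate with the library as a block was 0.67 ± 0.0228 (SE), adjusted p = 0.000136, a call shared with 0.0696% of 18670 genes. *Xist* and the Y-linked genes that define the classes were not left out of the fit, and their difference was fixed in advance. Without the block, which leaves the step between replicates in the spread, the *Kdm6a* estimate was 0.67 and was not called (adjusted p = 0.826). *Uty* was at 101.1, 100.1, 131 and 135 CPM in the Y class and at 0.867, 0.419, 0.504 and 0.469 CPM in the *Xist* class, in which the gene should be absent. Of other X-linked genes with a Y-linked paralog, *Eif2s3x* (a translation initiation factor) was higher in the *Xist* class by 0.58 (log2, adjusted p = 0.00317) and *Kdm5c* (a demethylase of lysine 4 of histone H3) by 0.43 (adjusted p = 0.00123). *Ddx3x*, an RNA helicase, was at 0.19 and was not called (adjusted p = 0.257). The other 9 subunits lay between -0.051 and 0.069, with *Dpy30* the highest (0.069 ± 0.0253 (SE), adjusted p = 1).

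Within cell types, *Kdm6a* was higher in the *Xist* class in 48 of 48 pairs of sums (12 types, 4 libraries), although 1 of them, contractile mesenchyme of cKO Rep1, had 0 *Kdm6a* UMIs in 4 cells of the Y class. The median ratio over libraries was 1.67 in cranial mesenchyme, 1.84 in posterior second heart field, 1.64 in endothelium and 1.24 in cardiac muscle. Whether these ratios differ between types was not tested. *Kdm6a* was not called between genotypes within either class: the estimate was 0.046 ± 0.0553 (SE), adjusted p = 1 in the *Xist* class and 0.061 ± 0.0606 (SE), adjusted p = 0.999 in the Y class. *Kmt2d* was at -0.17 ± 0.0830 (SE), adjusted p = 1 and -0.15 ± 0.0994 (SE), adjusted p = 0.999. In both classes 0 of the subunits were called, beside 0% of 18958 and 16781 genes, 886 and 617 of which had an unadjusted p under 0.05.

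**Figure D4:**
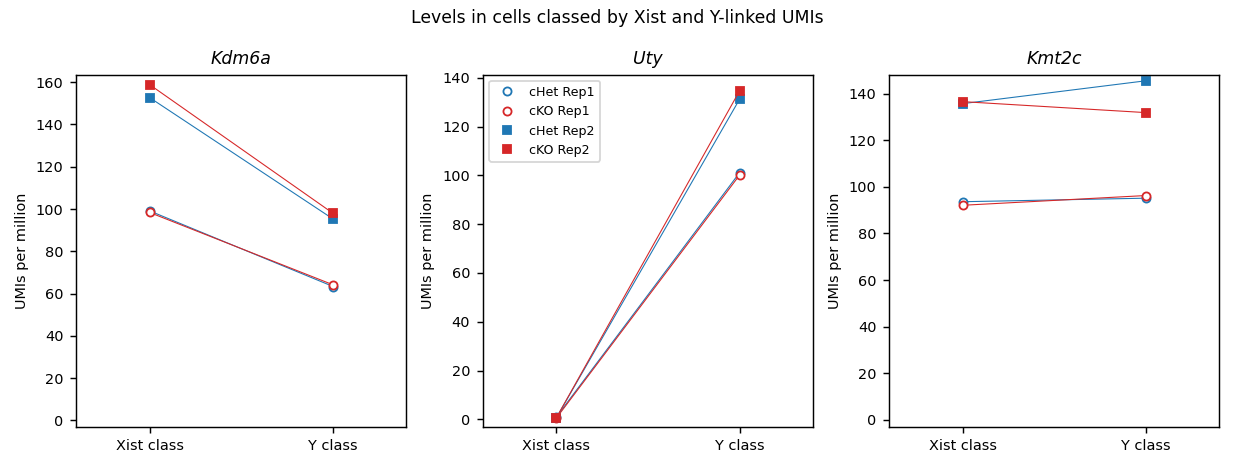
Levels of *Kdm6a*, *Uty* and, for comparison, *Kmt2c* (CPM) in cells of the *Xist* class and the Y class, with lines joining the classes of 1 library (blue cHet, red cKO, open circles Rep1, filled squares Rep2). *Kdm6a* falls in every library from the *Xist* class to the Y class, from 99.1 to 63.4 CPM in cHet Rep1, and *Uty* is near 0 in the *Xist* class.

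Subunits of the other KMT2 complexes gave no call between genotypes, and among types their share of calls was near that of all genes. Of 12 such genes, 0 were called between genotypes over all cells or in any of the 12 types. Over all cells their estimates ran from -0.050 to 0.038 with a median of 0.0012, beside 0.016 over all genes. Among types, 11 of 12 were called, beside 94.4% of all genes, all but *Cxxc1* (adjusted p = 0.102), a CpG-binding subunit of the SETD1 complexes. Their median distance between the lowest and highest type was 0.62 (log2). *Hcfc2*, a subunit related to host cell factor 1, varied most (1.89), with a mean of 25.2 CPM in cardiac muscle and 7.54 CPM in otic vesicle, the opposite end from *Wdr5*, *Rbbp5*, *Kdm6a* and *Paxip1*, whose mean relative levels were lowest in cardiac muscle. *Kmt2a* (0.52), *Kmt2b* (0.64) and *Setd1b* (0.53), methyltransferases of the other complexes, varied about as much as *Kmt2d* (0.61).

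Of 10 other enzymes of enhancers and of lysine 27 of histone H3, 9 were called among types, beside 94.4% of all genes, all but *Uty* (adjusted p = 0.0931). The largest distances were those of *Ezh1* (1.55), highest in endothelium at a mean of 19.95 CPM, and *Ezh2* (1.14), highest in otic vesicle at 554 CPM and lowest in cardiac muscle at 222 CPM; both are methyltransferases of lysine 27. *Kdm6b*, the other demethylase of that residue, was highest in sensory neurons, at 61.4 CPM. Between genotypes, 0 of the 10 were called over all cells and 1 in a single type: *Uty* was higher in cKO in posterior second heart field by 0.90 ± 0.142 (SE, log2, adjusted p = 0.00289). There the share of the Y class among classed cells was 13.2 and 18.6% in cHet and 38.8 and 36.9% in cKO (Rep1 and Rep2), and *Xist* fell by 0.37 (log2, adjusted p = 0.0167).

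Genes were also sought whose pattern over types was most like that of a subunit, as the highest Pearson r over the 48 sums after the mean of each library was subtracted, among 9084 genes. For *Kmt2d* these were *Drg2*, *Atg7* and *Zfp976* (r = 0.71, 0.66 and 0.66). *Kmt2c* was most like *Mbd5*, *Kansl1l* and *Fnip1* (r = 0.68, 0.68 and 0.68). *Wdr5* was nearest to *Nob1*, *Phf5a* and *Umps* (r = 0.83, 0.81 and 0.79), of which *Nob1* acts in ribosome assembly and *Phf5a* in splicing. *Rbbp5* was nearest to *Exog*, *Xpo6* and *Tle3* (r = 0.71, 0.67 and 0.67). For *Ash2l* they were *Ssbp1*, *Trim28* and *Gmps* (r = 0.84, 0.84 and 0.83), of which *Trim28* encodes a corepressor. *Dpy30*, which had the highest value of any subunit, was nearest to *Bola1*, *Abhd17c* and *Syce2* (r = 0.85, 0.83 and 0.81). *Kdm6a* was nearest to *Peli1*, *Peli2* and *Fmnl2* (r = 0.77, 0.75 and 0.75), of which *Peli1* and *Peli2* encode related ubiquitin ligases. *Ncoa6* was nearest to *Cep112*, *Lnpep* and *Abcf3* (r = 0.75, 0.74 and 0.72). *Paxip1* was nearest to *5430416N02Rik*, *Rnf219* and *Rad54l* (r = 0.77, 0.74 and 0.73), of which *Rad54l* acts in DNA repair by recombination. No subunit was among the 3 genes nearest to another.

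In 1 small unnamed cluster (cluster 21, 108 cells, led by *Fabp7* and *Ggct*) some subunits were low and others were not. The cluster was singled out after its values were seen. *Kmt2d*, *Kmt2c*, *Kdm6a*, *Ncoa6* and *Paxip1* were below the level of all cells, with counting intervals under 1, and the core subunits *Wdr5*, *Rbbp5* and *Ash2l* had intervals that held 1, with *Dpy30* above it. *Kmt2d* had 10 UMIs where 28.1 would be found at the level of all cells (ratio 0.356, 95% interval 0.171 to 0.655), an exact Poisson interval for counting error only. *Kdm6a* had 31 UMIs where 162 would be found at the level of all cells (ratio 0.192, 95% interval 0.130 to 0.272). *Kmt2c* had 38 UMIs where 167 would be found at the level of all cells (ratio 0.227, 95% interval 0.161 to 0.312). The ratios were 0.269 for *Ncoa6*, 0.425 (interval 0.278 to 0.623) for *Paxip1*, 0.830 (0.575 to 1.16) for *Rbbp5*, 1.09 for *Wdr5*, 1.11 for *Ash2l* and 1.36 for *Dpy30*. The intervals of *Rbbp5*, *Paxip1* and *Kmt2d* overlapped, and no difference between subunits was tested. How many of all genes lay below their all-cell level in this cluster was not computed, so the values do not set the subunits apart. The first 5 span 39.5 to 227 kb of the genome and the core subunits 21.4 to 31.7 kb. *Malat1*, a nuclear RNA, was at 52.2 to 552 CPM in this cluster and 2869 to 4189 CPM in all cells, and the median depth of its cells was 11789.5 UMIs. The part of either in the result was not tested. The cluster held 5, 24, 50 and 29 cells of the libraries, too few to compare genotypes, and without it the *Kmt2d* estimate over all cells was -0.16.

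**Figure D5:**
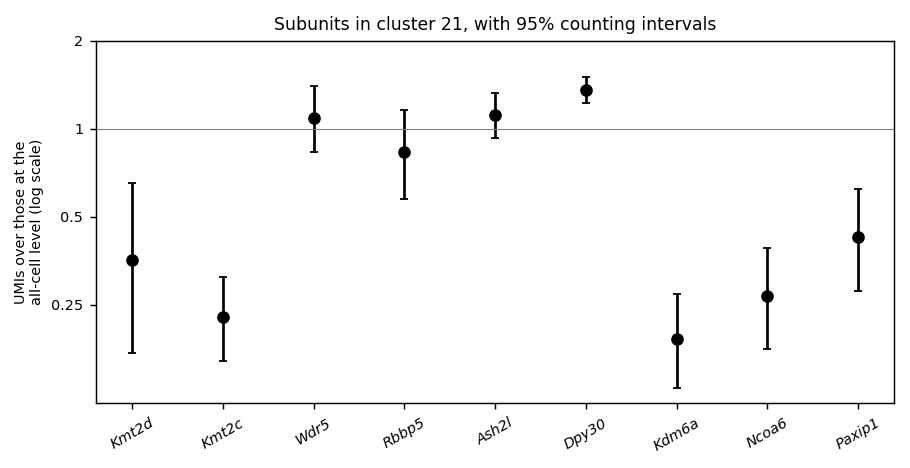
UMIs of each subunit in cluster 21 divided by the UMIs expected if each library's cells had the level of all its cells (log scale, 95% counting intervals, all 4 libraries together, *Pagr1a* left out at 1 UMI). The line marks 1, with *Kdm6a* lowest at 0.192 and *Dpy30* highest at 1.36.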

How the data were processed

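RNA of sorted GFP-positive cells from the 4 libraries was counted by the authors with Cell Ranger (8.0.1 per the labels, 7.0.1 in the headers of the Rep1 files) on mm10; the deposited values are raw UMI counts per gene and barcode, and whether introns were counted is not given in the sources used here. Barcodes with at least 3000 genes, at most 10% mitochondrial and at most 5% hemoglobin counts were kept. Doublet scores were computed in each library and the highest-scoring barcodes removed at the rate the kit implies (359 to 637 per library), because the automatic threshold marked only 5 to 219. Cells of all libraries were clustered on 2000 variable genes, without the subunits, after alignment between the replicates (scanpy 1.11.5, Leiden resolution 0.8). Clusters were named from marker lists by a rule of at least 3 markers and 2 more than any other list. Counts were summed per library, type or class and tested with edgeR 4.0.16 (R 4.3.3; quasi-likelihood F test, TMM, filterByExpr, Benjamini-Hochberg adjustment over all genes tested, threshold 0.05), with the replicate or library as a block. Same-numbered libraries deviated together (r = 0.815 over all cells, 0.419 to 0.816 by type) and shared a kit and pool size. DESeq2 1.42.0, other scalings, filters, thinning, clusterings and left-out libraries were tried as alternatives, 3 of them chosen after seeing the data. The fits were tested on simulated data. P-values measure the spread left after the replicate or library is fitted as a block, with each gene's spread drawn toward that of other genes. In fits without a block they include the step between replicates, and in genotype fits with a library left out the estimates include it too. The SE of an edgeR estimate was taken as the size of the estimate divided by the square root of its F statistic. Intervals on UMIs cover counting error only. All subunits entered every comparison, although *Pagr1a* was too low for some and several subunits are given only within a range. Other genes were the fixed lists of COMPASS subunits and enhancer enzymes, those called plus examples, and the 3 genes most like each subunit. The subunits and lists were chosen with earlier results of these data known. Clusters were rebuilt here, so names may differ from those of the study.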

Additional observations from a re-analysis of the deposited data

Results flagged for a closer look

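In 1 unnamed cluster of 108 cells, which was part of the sums over all cells but of no comparison by type, *Kmt2d* (ratio 0.356), *Kmt2c* (0.227), *Kdm6a* (0.192), *Ncoa6* (0.269) and *Paxip1* (0.425) had fewer UMIs than at the level of all cells, and they drew attention because their counting intervals lay below 1. The share of all genes below their all-cell level there was not computed. In barcodes under 1000 UMIs, which were outside the comparisons, *Kmt2d* was at 27.1 CPM in cHet Rep1, 23.9 CPM in cKO Rep1, 16.2 CPM in cHet Rep2 and 15.5 CPM in cKO Rep2. In Rep1 these levels were above those of the cells kept, and in Rep2 below them. Other subunits were above their level in cells too, among them *Dpy30* (218 and 229.7 CPM) and *Wdr5* (31.8 and 38.3 CPM) in cHet and cKO of Rep1, and *Ash2l* in cHet Rep1 (74.7 CPM) and in cHet and cKO of Rep2 (112 and 115 CPM). In cKO Rep1 the *Kmt2d* level rests on 10 UMIs. The cause of either was not tested.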

How the results depend on the processing

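The count of subunits called between genotypes was 0 over all cells and within types under every alternative that was run, and 0 with each library left out. Without the replicate block it was 0 as well, and the *Kmt2d* estimate was -0.16 (adjusted p = 1). The block changed no call of a subunit. Over all cells, the count of all genes called was 0 in the main fit, without the block and with RLE scaling. It was 65 with DESeq2, 91 with genes of at least 1 count, 14 with thinned cells and 3 with barcodes of at least 1000 genes. Where no gene was called, the 0 does not set the subunits apart. Among types, 9 subunits were called, but 5 with the cHet libraries alone and 7 to 8 with each library left out, beside 13632, 11494 and 12653 to 13559 of all genes. *Kdm6a* between the *Xist* and Y classes was 0.67 without the library block (adjusted p = 0.826, no longer called; the other alternatives kept the call), and 0.65 to 0.68 with each library left out. The sign of uncalled genotype estimates turned in 28 cases. With cells thinned to 5000 UMIs, *Dpy30* was -0.042, *Kdm6a* -0.014 and *Kmt2d* in paraxial mesoderm -0.042. At a clustering resolution of 1.2 *Kmt2d* in paraxial mesoderm was -0.10, but there the name took in another, larger cluster. That value thus rests mostly on other cells and is no sign change in the same cells. With barcodes of at least 1000 genes, *Dpy30* was -0.058 and *Pagr1a* -0.024. With each library left out, estimates over all cells ran from -0.25 to -0.090 for *Kmt2d*, -0.12 to 0.11 for *Kmt2c*, -0.10 to 0.24 for *Wdr5*, -0.41 to 0.43 for *Rbbp5*, -0.12 to 0.037 for *Ash2l*, -0.086 to 0.057 for *Dpy30*, -0.16 to 0.15 for *Kdm6a*, -0.094 to 0.10 for *Ncoa6*, -0.40 to 0.25 for *Paxip1* and -0.013 to 0.20 for *Pagr1a*. These fits have no block, since 3 libraries with a block leave no residual degrees of freedom, and the lone library of a genotype is assumed to vary like the others. They set both replicates of a genotype against a single one of the other. The step between replicates thus enters the estimates, and the ranges do not show the spread of the genotype difference alone. For *Kmt2d* in types whose sign turned, they ran from -0.78 to 0.31 in contractile mesenchyme, -0.31 to 0.15 in cranial mesenchyme, -0.35 to 0.057 in ectoderm and -0.26 to 0.041 in endoderm. Where the sign held, the range was -0.46 to -0.16 in branchiomeric muscle, -0.27 to -0.021 in endothelium, -0.32 to -0.046 in sensory neurons, 0.059 to 0.34 in paraxial mesoderm, 0.0076 to 0.13 in posterior second heart field, -0.094 to -0.020 in otic vesicle, -0.36 to -0.20 in neural tube and -0.41 to -0.35 in cardiac muscle. The part of the step between replicates in the ranges with a library left out was not tested, nor was the cause of the other changes. The neural tube gave no value at resolution 1.2, where it was not named.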

Other observations

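The 7 larger unnamed clusters, led by such genes as *Hoxd3* (a homeobox gene), *Cyp26a1* (which breaks down retinoic acid) and *Hand2* (a transcription factor of heart and jaw), held more cells than the 12 named types together. *Kmt2d* ran over these clusters from 14.4 to 19.5 and 13.7 to 19.8 CPM in cHet and cKO of Rep1 and 21.8 to 27.7 and 19.5 to 23.2 CPM in Rep2. *Kmt2c* ran from 62.3 to 111 and 62.6 to 112 CPM in cHet and cKO of Rep1 and 105 to 162 and 100.7 to 162 CPM in Rep2. *Kdm6a* ran from 78.6 to 114 and 74.4 to 122 CPM in cHet and cKO of Rep1 and 119.9 to 188 and 114 to 182 CPM in Rep2. None of the 7 was at 0 for these subunits in any library, and no test was run among them.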
